A study of Rattus norvegicus with 6 samples.

Results

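The genes described here are 50 genes of the cell cycle and DNA replication, taken by symbol from a written list out of the 29468 symbols in the deposited tables. They comprised 9 genes of the G1 phase, 14 of DNA replication and 27 of mitosis. RNA had been sequenced from Schwann cell precursors (SCPs) and repair Schwann cells (RSCs) of LEWIS rats labelled as wild type, with 3 samples in each group. The study's methods state that the cells it grafted came from LEWIS rats with a transgene for the red fluorescent protein RFP, and whether the sequenced cells carried it is not given in the sources used here. SCPs are the embryonic cells that give rise to Schwann cells, and they were dissociated from sciatic nerves and brachial plexus at embryonic day 14, with no treatment. RSCs are the cells that Schwann cells become after injury, and they were dissociated from the distal part of sciatic nerves of rats aged 10 weeks, 1 week after the nerve was cut. The groups therefore differed in age, injury and tissue together, and these cannot be told apart. The labels do not tie the samples to single animals, so p-values measure the spread between these preparations, which may in part be technical.

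A dividing cell passes from G1, where D-type cyclins with Cdk4 or Cdk6 and then cyclin E with Cdk2 release E2F transcription factors from the RB proteins, to S phase, where the MCM helicase opens the DNA to be copied. In mitosis, cyclin B with Cdk1 drives the cell forward, and the spindle checkpoint holds it until the anaphase-promoting complex (APC/C) is switched on. SCPs are known as dividing cells of the early nerve, and Schwann cells of an adult nerve, which are at rest, are known to divide again for a time after injury.

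Expression was in FPKM, the number of sequenced fragments per kilobase of a transcript relative to all mapped fragments, summed over the transcripts that carry a gene's name. Genes were compared with limma on log2(FPKM + 1), RSC minus SCP, at an unadjusted p under 0.01, and p-values were adjusted by the Benjamini-Hochberg method across the 13003 genes tested. The added 1 understates the fold change of genes with low FPKM. The tables hold no counts, so absolute depth is unknown, and depth relative to the deepest sample ranged from 0.79 to 0.84 among RSCs and from 0.88 to 1.00 among SCPs. A value of 0 can be a failed estimate of Cufflinks, the program that made the tables, and such a gene is called listed at 0. Cufflinks had also assembled transcripts without a gene name in each sample, and a second set of values adds those that overlap a member to that member.

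The markers of the sampled cells differed between the groups. Sox10, the defining transcription factor of the Schwann lineage, was at 179, 175 and 181 FPKM in SCPs and at 149, 143 and 143 in RSCs. All 14 tested leukocyte markers were higher in RSCs, with a summed level of 3118 to 3938 FPKM against 25.1 to 74.9 in SCPs. Of those too low to be tested, Cybb (mean of 1.32 FPKM in SCPs and 0 in RSCs) and Cd79a (0.568 and 0.0569) lay higher in SCPs. Cd3e (0 and 1.96) lay higher in RSCs. Of 11 tested erythroid markers 9 were higher in SCPs, with a summed level of 17631 to 78699 FPKM against 451 to 643 in RSCs, where Hbe1, Hbz and Rhag were among those listed at 0. Fibroblast markers summed to 5420 to 8070 FPKM in RSCs and to 1315 to 1816 in SCPs, and endothelial and mural markers to 200 to 270 and 118 to 321. The fibroblast markers did not move together, since of 8 tested 5 were higher in RSCs and 2 in SCPs. Those 2 were Postn (mean of 570 FPKM in SCPs and 18.5 in RSCs) and Fbln1 (179 and 46.4). Skeletal muscle, cartilage and neuron markers summed to 59.8 to 221, 62.0 to 110 and 35.0 to 62.5 FPKM in SCPs and to 23.3 to 28.7, 5.42 to 7.42 and 23.1 to 35.1 in RSCs. Against these sums, Des was higher in RSCs where 6 of 7 tested muscle markers were higher in SCPs. Of 2 tested cartilage markers, Sox9 was higher in RSCs and Col2a1 in SCPs. The part of these other cells in the results on the cell cycle genes was not tested. In bulk RNA, fewer dividing cells and less of an RNA per cell cannot be told apart.

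Most cell cycle genes were higher in SCPs, and 1, the D-type cyclin Ccnd1, was higher in RSCs. Of the 50 genes 47 had a mean of at least 1 FPKM and were tested, and 35 of them were higher in SCPs, or 74.5%, where 22.4% of all tested genes were. Ccnd1 was the single gene higher in RSCs, where 18.1% of all tested genes were called in that direction, and 11 did not pass. At an adjusted p under 0.01, 34 members were called, 33 of them higher in SCPs, where 16.6% of all tested genes were. The median log2 fold change of the 47 was -1.54, or 2.92-fold higher in SCPs, against -0.17 for all tested genes. Relative to that overall shift the median was -1.38, and it was also -1.38 after median-of-ratios scaling, which moved the median of all genes to 0.0092. More than 4-fold higher in SCPs were 10 members, or 21.3%, where 3.78% of all tested genes were, and more than 4-fold higher in RSCs were 0, where 7.81% of all were. The count of 10 fell to 5 after median-of-ratios scaling and to 6 without SCP replicate 1.

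By phase, 4 of 7 tested G1 genes, 9 of 14 replication genes and 22 of 26 mitosis genes were higher in SCPs. The median log2 fold change was -1.20 for G1, -1.38 for replication and -1.75 for mitosis. Members more than 4-fold higher in SCPs were 3 G1 genes and 7 mitosis genes, and no replication gene. Summed over the members of a phase, SCPs had 1.62 times the FPKM of RSCs for G1, 2.34 times for replication and 3.33 times for mitosis, while the median FPKM of the members was 4.27, 2.52 and 3.63 times as high in SCPs, so the order of the phases depended on the measure. In 36 members every SCP value lay above every RSC value, as in 33.7% of all tested genes, and in Ccnd1 every RSC value lay above every SCP value, as in 24.9%. Adding the unnamed transcripts brought the tested members to 49, and 42 were then higher in SCPs, where 34.2% of all 14019 tested genes were, and Ccnd1 alone was higher in RSCs, where 23.2% were. Of the 49, 9 were more than 4-fold higher in SCPs, or 18.4%, where 4.58% of all were. They were 2 G1 genes and 7 mitosis genes. The 6 tested members that then did not pass were Cdk6, E2f1, Pcna, Rrm2, Chek1 and Foxm1.

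**Figure D1:**
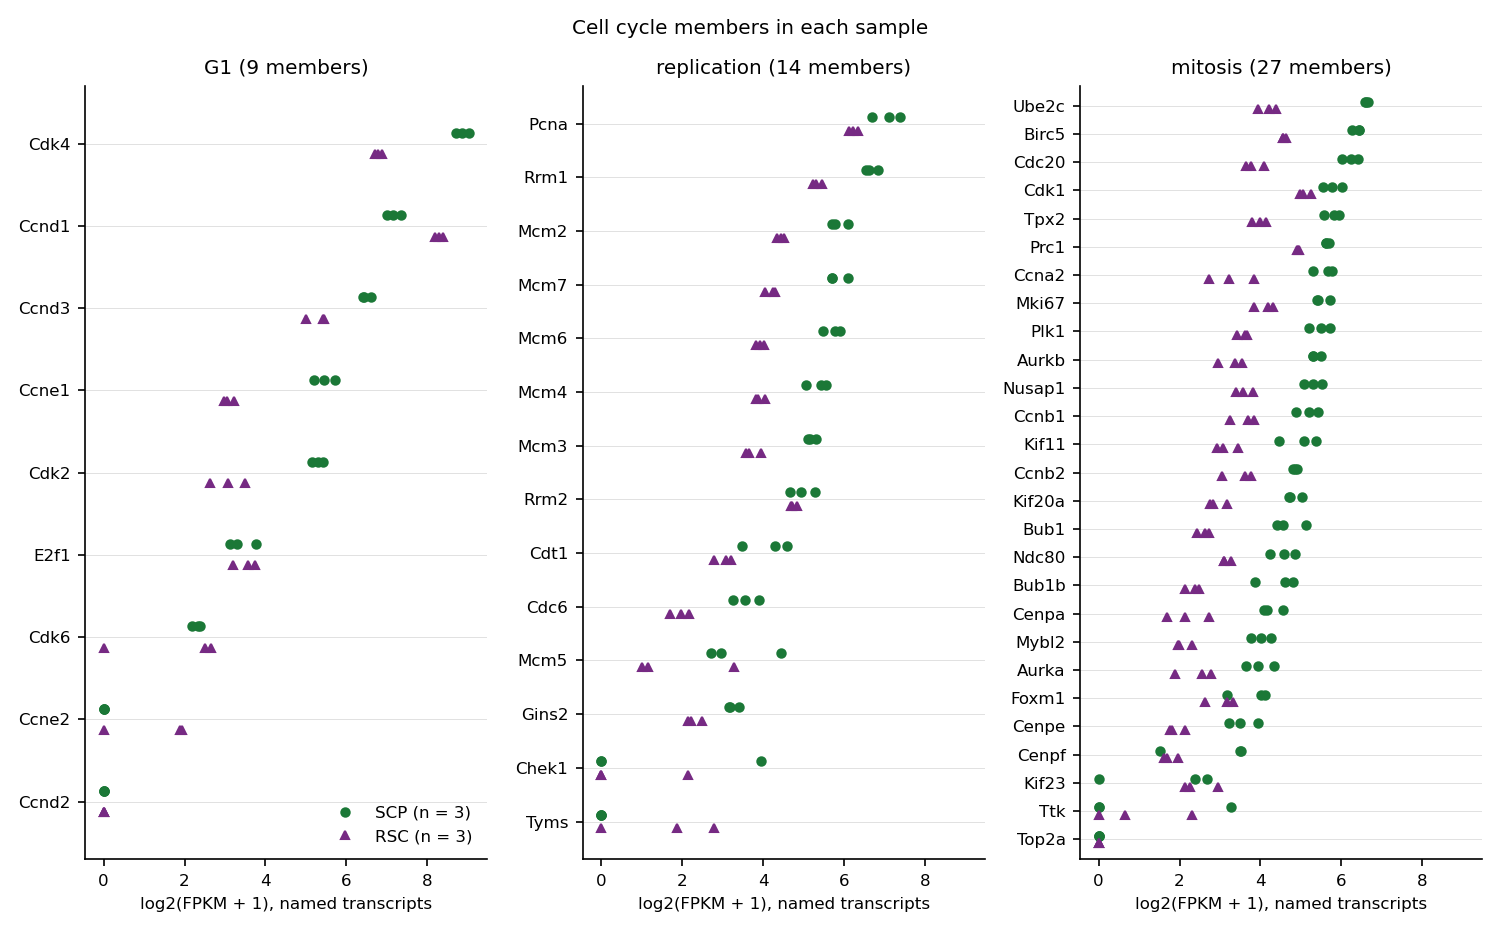
Each point is the log2(FPKM + 1) of the named transcripts in 1 sample, with SCPs as green circles and RSCs as purple triangles (n = 3 each), for the 9 G1, 14 replication and 27 mitosis genes ordered by their SCP mean. The RSC points lie left of the SCP points in 36 members and right of them in Ccnd1.

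The replication and mitosis genes differed in the letters of their promoters, which the choice of genes had not used. The phases were assigned by known roles, with which these motifs are known to go, so the split is no independent result. RefSeq promoter windows on the GRCr8 build, 250 bases before to 50 after the start of a gene, were given for 37 of the 50 members. GRCr8 is not the build of the expression tables, which is rn6. The CHR motif (TTTGAA or TTTAAA, both strands), a known element of genes expressed in G2 and mitosis, was in the windows of 21 of 22 mitosis genes, or 95.5%, and in 1 of 11 replication genes, or 9.09%, and 28.3% of all 33469 windows hold it. Mybl2 was the mitosis gene without it. Within the 100 bases before the start it was in 72.7% of mitosis genes, in 0 of 11 replication genes and in 9.76% of all windows. The E2F motifs (TTTGGCGC, TTTCGCGC or GGCGGGAA, both strands) were in 9 of 11 replication genes, or 81.8%, in 9.09% of mitosis genes and in 2.68% of all windows. A CCAAT box (both strands), the motif of the factor NF-Y, was in 77.3% of mitosis genes, 63.6% of replication genes and 37.5% of all windows, and 2 or more were in 54.5%, 36.4% and 11.2%. Only 4 G1 genes had a window, of which 1 held a CHR and 0 an E2F motif. The CCAAT box shared 1 base with the E2F motif in Mcm7 and 1 base with the CHR in Mki67. A match is a description of the letters and not a site at which a factor was measured.

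The 100 bases before the start are shown for 6 mitosis genes with a CHR, in capitals, and 3 replication genes with an E2F motif, in capitals, so that both kinds can be compared. They run 5′ to 3′ on the strand of the gene, on which Top2a holds the CHR in reverse complement. In Mcm2 the E2F motif and its reverse complement overlap.
Cdk1: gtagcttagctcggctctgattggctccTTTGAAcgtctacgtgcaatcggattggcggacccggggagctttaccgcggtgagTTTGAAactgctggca
Ccnb1: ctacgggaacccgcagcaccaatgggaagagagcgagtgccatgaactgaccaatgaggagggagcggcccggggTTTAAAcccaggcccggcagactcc
Ccnb2: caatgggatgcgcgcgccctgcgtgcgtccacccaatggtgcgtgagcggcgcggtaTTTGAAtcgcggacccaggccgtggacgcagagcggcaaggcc
Cdc20: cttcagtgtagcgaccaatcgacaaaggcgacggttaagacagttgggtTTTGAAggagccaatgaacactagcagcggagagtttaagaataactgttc
Plk1: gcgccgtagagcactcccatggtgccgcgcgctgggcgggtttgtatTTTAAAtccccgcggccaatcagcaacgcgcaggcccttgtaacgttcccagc
Top2a: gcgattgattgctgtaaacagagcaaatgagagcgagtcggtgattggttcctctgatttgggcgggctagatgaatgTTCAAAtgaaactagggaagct
Mcm2: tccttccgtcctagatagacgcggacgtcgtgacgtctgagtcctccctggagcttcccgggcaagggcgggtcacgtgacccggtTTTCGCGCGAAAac
Mcm7: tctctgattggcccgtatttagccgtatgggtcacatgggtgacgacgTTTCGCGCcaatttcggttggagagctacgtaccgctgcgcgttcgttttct
Tyms: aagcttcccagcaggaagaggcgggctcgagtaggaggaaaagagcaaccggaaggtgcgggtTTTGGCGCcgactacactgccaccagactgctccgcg

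On GRCr8 these stretches are chr20:19265193-19265292 (plus strand) for Cdk1, chr2:33655226-33655325 (minus) for Ccnb1, chr8:79981659-79981758 (minus) for Ccnb2, chr5:137255800-137255899 (minus) for Cdc20, chr1:186147558-186147657 (plus) for Plk1 and chr10:84473094-84473193 (minus) for Top2a. Those of the replication genes are chr4:122918095-122918194 (minus) for Mcm2, chr12:22163179-22163278 (minus) for Mcm7 and chr9:120776084-120776183 (minus) for Tyms. All 6 mitosis stretches also hold a CCAAT box, read as ccaat or attgg.

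**Figure D2:**
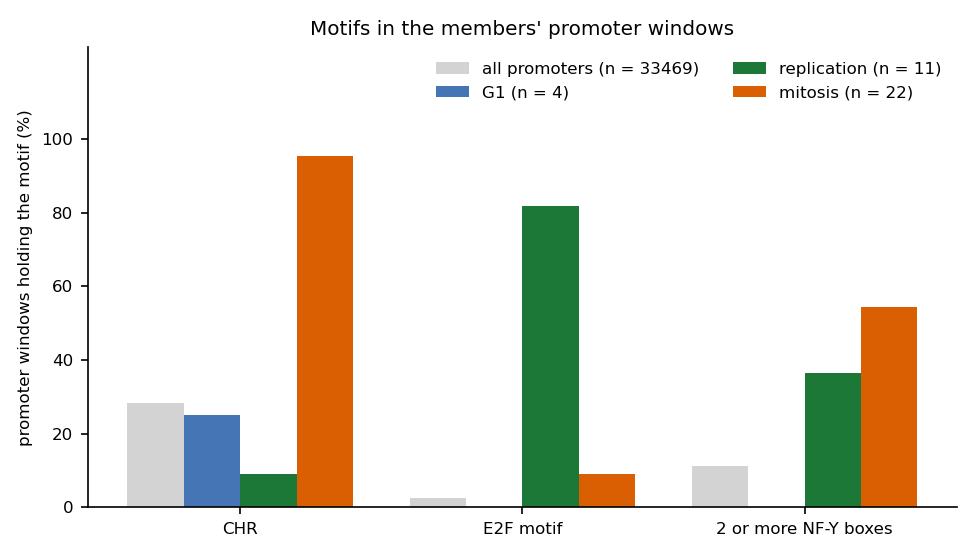
Bars give the percent of promoter windows (250 bases before to 50 after the start) that hold a CHR, an E2F motif, or 2 or more CCAAT boxes (drawn as NF-Y boxes), for all windows and for the members by phase, with the number of windows in the legend. The CHR bar is highest for mitosis genes, at 95.5%, and the E2F bar for replication genes, at 81.8%.

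In G1, the D-type cyclins moved apart. Ccnd1 (chr1:218090750-218100447 on rn6), the cyclin that growth signals raise early in G1, was at 142, 128 and 163 FPKM in SCPs and at 332, 293 and 313 in RSCs. All 3 RSC values lay above the SCP values, and the log2 fold change was 1.11 (SE 0.11), with an adjusted p of 0.000506 by limma with Benjamini-Hochberg adjustment. Ccnd3 was at 84.0, 85.1 and 96.7 FPKM in SCPs and at 42.2, 30.9 and 42.0 in RSCs, a fold change in the other direction (-1.20, SE 0.15, adjusted p 0.00128). The named transcript of Ccnd2 (chr4:159674885-159697207) was listed at 0 in all 6 samples, while 1 unnamed transcript over the same locus was at 81.4, 73.3 and 65.5 FPKM in SCPs and at 29.4, 30.7 and 26.0 in RSCs. With it counted, Ccnd2 was higher in SCPs by 1.32 on the log2 scale, 2.50-fold (SE 0.11, adjusted p 9.01e-05). Ccnd1 then made up 46.2%, 44.7% and 50.1% of the FPKM of the 3 D-type cyclins in SCPs and 82.3%, 80.2% and 82.1% in RSCs. The summed level of the 3 was 307, 287 and 325 FPKM in SCPs and 404, 365 and 381 in RSCs. Neither the share nor the sum overlapped between the groups, and each had an exact two-sided permutation p of 0.1, the smallest that 3 against 3 samples can give. For the share this follows from the opposite, non-overlapping changes of the 3 genes and is no further result.

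Cdk4 (chr7:70345971-70352689), the kinase that the D-type cyclins activate, had the highest level of all members in SCPs, at 518, 458 and 420 FPKM, and was at 104, 108 and 116 in RSCs. Its log2 fold change was -2.08 (SE 0.098, adjusted p 4.66e-05), opposite to that of Ccnd1. Ccnd1 was thus at 0.274, 0.279 and 0.388 times the FPKM of Cdk4 in SCPs and at 3.21, 2.71 and 2.69 times in RSCs. That this ratio did not overlap follows from the opposite, non-overlapping changes of both genes and is no further result. Cdk6, the other kinase partner of the D-type cyclins, was at 3.51, 4.19 and 4.04 FPKM in SCPs and at 4.63, 0 and 5.27 in RSCs. Its groups overlapped (log2 fold change -0.58, SE 0.73, adjusted p 0.55), and its fold change was 0.28 without RSC replicate 2, where it was listed at 0.

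**Figure D3:**
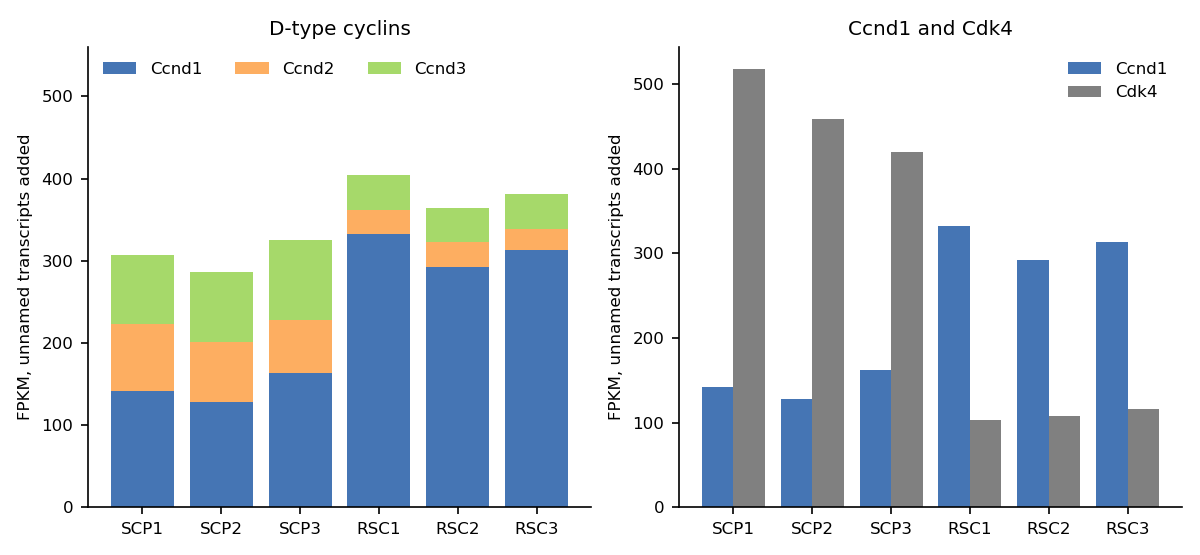
The left panel stacks the FPKM of Ccnd1, Ccnd2 and Ccnd3 in each sample and the right panel sets Ccnd1 beside Cdk4, both on linear axes from 0 and with the unnamed transcripts added. Ccnd1 bars are below Cdk4 bars in the 3 SCP samples and above them in the 3 RSC samples.

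Cyclin E and its kinase were lower in RSCs. Ccne1 was at 51.3, 35.7 and 42.6 FPKM in SCPs and at 7.23, 6.82 and 8.33 in RSCs, the largest fold change among G1 members (-2.38, SE 0.16, adjusted p 0.000162). Cdk2 was at 38.5, 41.5 and 34.5 FPKM in SCPs and at 10.3, 5.19 and 7.49 in RSCs (-2.22, SE 0.24, adjusted p 0.000752). In both genes the lowest SCP value was more than 3 times the highest RSC value. With unnamed transcripts added Cdk2 was at -1.95 (SE 0.10), no longer more than 4-fold higher in SCPs. Ccne2 was listed at 0 in the 3 SCP samples and at 0, 2.82 and 2.69 FPKM in RSCs, and was not past the filter. E2f1, a transcription factor that RB holds back in G1, was at 8.83, 12.5 and 7.70 FPKM in SCPs and at 10.8, 8.17 and 12.3 in RSCs. These ranges overlapped, and the log2 fold change of 0.10 (SE 0.23, adjusted p 0.743) did not pass and was -0.29 with unnamed transcripts added.

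In replication, 5 subunits of the MCM helicase were higher in SCPs with log2 fold changes between -1.80 and -1.41. Mcm6 (chr13:45042882-45068073) was at 59.0, 54.2 and 43.5 FPKM in SCPs and at 15.2, 14.3 and 13.1 in RSCs (-1.80, SE 0.14, adjusted p 0.000259). Mcm7 was at 67.4, 51.2 and 50.8 FPKM in SCPs and at 15.6, 18.0 and 18.5 in RSCs (-1.64, SE 0.15, adjusted p 0.000396). Mcm3, Mcm4 and Mcm2 had log2 fold changes of -1.46, -1.43 and -1.41, and in all 5 genes the groups did not overlap. Mcm5 was the exception in its named transcripts, at 5.55, 6.84 and 20.6 FPKM in SCPs and at 1.25, 8.81 and 1.03 in RSCs (-1.54, SE 0.76, adjusted p 0.149). Unnamed transcripts at its locus held 50.6, 34.4 and 4.48 FPKM in SCPs and 9.19, 0 and 6.98 in RSCs, and with them its groups parted (-1.99, SE 0.28, adjusted p 0.000931). With these added, the highest of the 6 subunits was 1.57 to 2.02 times the lowest in SCPs and at most 2.75 times in RSCs.

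Of the factors that load and start the helicase, Cdc6 was at 14.1, 8.59 and 10.7 FPKM in SCPs and at 2.95, 2.23 and 3.50 in RSCs (-1.62, SE 0.24, adjusted p 0.00263), and did not pass with its highest transcript alone (p 0.0138). Gins2, a subunit of the active helicase, had a log2 fold change of -0.98 (SE 0.18), with SCP values all above RSC values. Cdt1, which loads the helicase with Cdc6, did not pass (-1.08, unadjusted p 0.0140 by limma), although its groups did not overlap, and it passed without SCP replicate 2 (-1.40, p 0.00117) or with unnamed transcripts added (-1.26, p 0.000692).

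Pcna and Rrm2 differed least among the replication genes measured above 0 in all samples. Pcna (chr3:124880698-124884570), the sliding clamp of the DNA polymerases, was at 166, 137 and 103 FPKM in SCPs and at 74.1, 69.2 and 80.5 in RSCs (-0.83, SE 0.18, unadjusted p 0.00406, adjusted p 0.0121). Unnamed transcripts at its locus held 0, 0 and 37.1 FPKM in SCPs and 71.7, 41.9 and 36.6 in RSCs, and with them the log2 fold change was -0.25 (SE 0.13, adjusted p 0.132) and the groups overlapped. The call was also lost without SCP replicate 2 (p 0.0172) and without each RSC replicate (p 0.011 to 0.0181).

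Ribonucleotide reductase, which makes deoxyribonucleotides, has a large subunit, Rrm1, and a small subunit, Rrm2. Rrm1 was at 113, 97.5 and 93.0 FPKM in SCPs and at 36.5, 38.3 and 43.0 in RSCs, a log2 fold change of -1.34 (SE 0.11, adjusted p 0.000294). Rrm2 was at 37.9, 29.6 and 24.5 FPKM in SCPs and at 27.5, 24.9 and 25.5 in RSCs, which overlapped (-0.21, SE 0.17, adjusted p 0.348). Rrm1 was at 2.98 to 3.80 times the FPKM of Rrm2 in SCPs and at 1.33 to 1.69 times in RSCs (exact permutation p 0.1, the smallest possible).

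The named transcripts of Tyms (chr9:121918875-121931564), the thymidylate synthase, were listed at 0 in the 3 SCP samples and at 0, 5.90 and 2.66 FPKM in RSCs (1.55, SE 0.71, adjusted p 0.122), and passed as higher in RSCs without RSC replicate 1 (2.33, p 0.0012). Unnamed transcripts at the locus held 35.7, 31.8 and 27.4 FPKM in SCPs and 8.61, 4.75 and 6.52 in RSCs. With both counted the direction turned, and Tyms was higher in SCPs (-1.64, SE 0.13, adjusted p 8.32e-05). Chek1, the checkpoint kinase of stalled replication, was at 14.5, 0 and 0 FPKM in SCPs and at 0, 0 and 3.40 in RSCs, so that 4 of 6 values were listed at 0 (-0.61, SE 1.25, adjusted p 0.722).

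**Figure D4:**
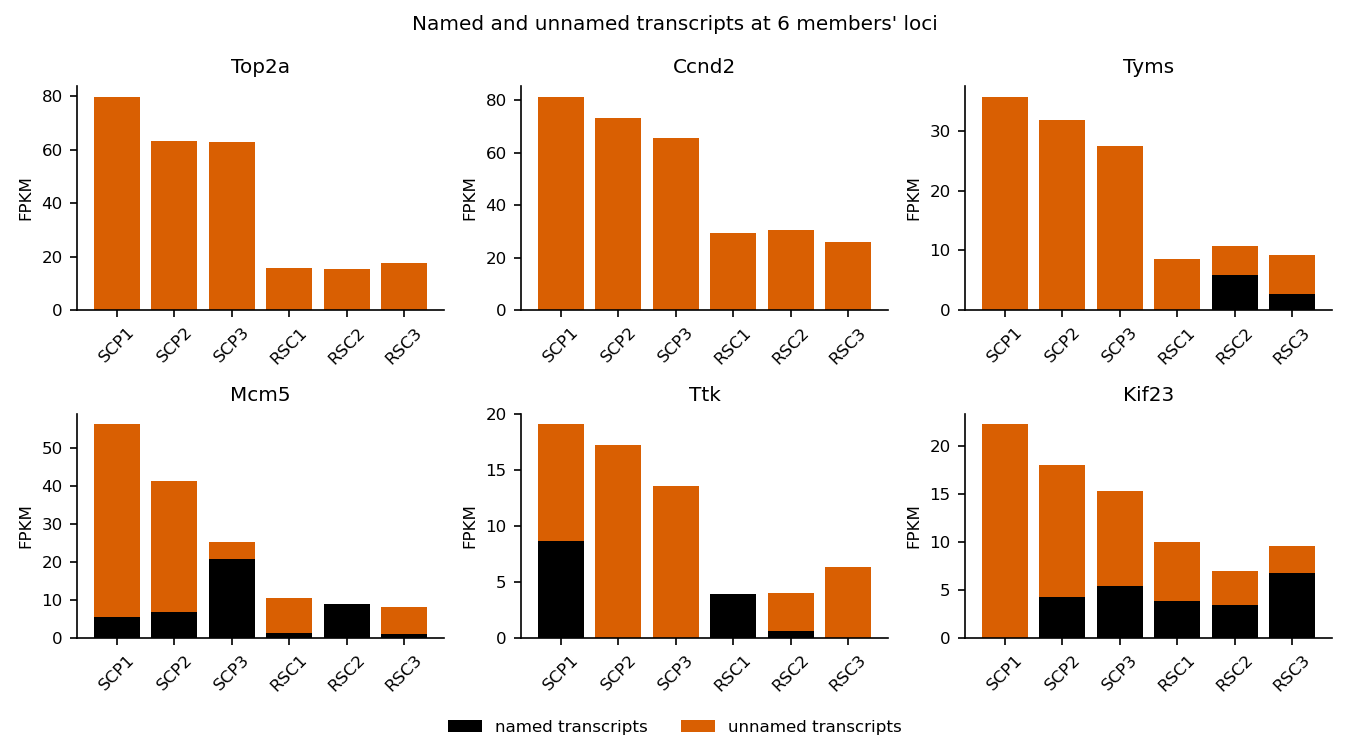
Stacked bars on linear axes from 0 give, for 6 members in each sample, the FPKM of named transcripts (black) and of unnamed transcripts at the locus (orange). The named part is 0 in all 6 samples for Top2a and Ccnd2, and the summed bars are higher in every SCP sample than in every RSC sample for all 6 genes.

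In mitosis, genes of the APC/C and the cyclin Ccna2 differed most in their named transcripts, and with unnamed transcripts added the largest differences were those of Ube2c (-2.45), Cenpa (-2.32) and Bub1 (-2.23). Ube2c (chr3:161236971-161239371), the enzyme that passes ubiquitin to APC/C substrates, was at 100.5, 95.3 and 96.4 FPKM in SCPs and at 17.6, 14.2 and 19.8 in RSCs, the largest fold change of all members (-2.45, SE 0.13, adjusted p 6.64e-05). Cdc20 (chr5:137260728-137264931), the activator of the APC/C, was at 83.4, 73.7 and 64.0 FPKM in SCPs and at 11.4, 16.0 and 12.7 in RSCs (-2.38, SE 0.16, adjusted p 0.000147). Ccna2, the cyclin of S phase and G2, was at 53.1, 38.3 and 50.2 FPKM in SCPs and at 8.30, 5.59 and 13.3 in RSCs (-2.32, SE 0.31, adjusted p 0.00171). None of these genes had overlapping groups.

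The spindle checkpoint genes among the members were also higher in SCPs, Ttk only with unnamed transcripts added. Of Bub3, Mad2l1 and Mad1l1, checkpoint genes outside the members, Bub3 passed (-0.61), and Mad2l1 (-0.94) and Mad1l1 (0.063) did not. With unnamed transcripts added Mad2l1 passed as well (-0.72), and Mad1l1 did not (0.14). Bub1 was at 33.6, 22.7 and 20.1 FPKM in SCPs and at 5.65, 5.18 and 4.38 in RSCs (-2.10, SE 0.22, adjusted p 0.000728). Bub1b was at 27.0, 23.2 and 13.5 FPKM in SCPs and at 4.56, 4.19 and 3.38 in RSCs (-2.10, SE 0.28, adjusted p 0.00174). For Ttk, the other checkpoint gene of the list, the named transcripts were at 8.63, 0 and 0 FPKM in SCPs and at 3.93, 0.567 and 0 in RSCs (-0.11, SE 1.08, adjusted p 0.947). With unnamed transcripts it was at 19.1, 17.2 and 13.6 FPKM in SCPs and at 3.93, 4.03 and 6.29 in RSCs, which parted the groups (-1.63, SE 0.20, adjusted p 0.000546).

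The markers most used for dividing cells, Mki67 and Top2a, were both present in RSCs and higher in SCPs. Mki67 (chr1:207993895-208020454), which encodes the Ki-67 antigen that coats mitotic chromosomes, was at 51.3, 41.0 and 42.2 FPKM in SCPs and at 13.2, 17.2 and 18.9 in RSCs (-1.40, SE 0.17, adjusted p 0.00113). Top2a (chr10:86901467-86930947), the topoisomerase that untangles replicated chromosomes, was listed at 0 in its named transcript in all 6 samples. An unnamed transcript over its locus was at 79.8, 63.1 and 62.6 FPKM in SCPs and at 15.8, 15.4 and 17.4 in RSCs, a log2 fold change of -2.01 (SE 0.12, adjusted p 2.36e-05). With unnamed transcripts added to both, Mki67 was 2.36-fold and Top2a 4.02-fold higher in SCPs.

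Cdk1 (chr20:20576343-20591510), the kinase of mitotic entry, differed less than its cyclins. It was at 63.4, 45.6 and 53.4 FPKM in SCPs and at 30.5, 37.2 and 32.3 in RSCs, 1.60-fold (-0.68, SE 0.15, unadjusted p 0.00409, adjusted p 0.0122). The call was lost after median-of-ratios scaling (-0.46, p 0.0216), and without SCP replicate 3 (p 0.0145), RSC replicate 1 (p 0.0169) or RSC replicate 3 (p 0.0165). Its partner Ccnb1 was at 42.0, 35.7 and 28.6 FPKM in SCPs and at 8.47, 11.9 and 13.4 in RSCs (-1.58, SE 0.22, adjusted p 0.00198), and Ccnb2 had a log2 fold change of -1.37. Cdk1 was at 1.28 to 1.87 times the FPKM of Ccnb1 in SCPs and at 2.42 to 3.60 times in RSCs, and at 0.812 to 1.22 and 2.17 to 3.14 times with unnamed transcripts added. Neither version overlapped (exact permutation p 0.1, the smallest possible). Prc1, which bundles microtubules of the midzone, was also among the members with the smaller called differences (-0.72, SE 0.077), with values of 48.1 to 50.6 FPKM in SCPs and 29.0 to 29.8 in RSCs.

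The remaining mitosis genes that passed lay between those ends. Aurkb and Birc5, partners in the chromosomal passenger complex, had log2 fold changes of -2.08 and -1.80, and Aurka and Plk1, kinases of the spindle poles and of mitotic entry, of -1.56 and -1.90. At the kinetochore, the centromere histone Cenpa was at -2.08, the motor Cenpe at -1.65 and the microtubule contact Ndc80 at -1.39. The spindle and cytokinesis genes Kif20a, Kif11, Tpx2 and Nusap1 were at -1.91, -1.82, -1.80 and -1.70. All of these had SCP values above all RSC values. With the highest transcript of each gene alone, Aurka (p 0.0875) and Tpx2 (p 0.0612) did not pass.

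The transcription factors that drive G2 and mitosis genes were not alike in the test. Mybl2 passed at -1.93 (SE 0.20, adjusted p 0.000664), and Foxm1 did not (-0.72, SE 0.32, adjusted p 0.115), with 8.02 to 16.2 FPKM in SCPs and 5.18 to 8.98 in RSCs. The difference between the 2 genes was not tested. Cenpf, a kinetochore protein, did not pass (-1.08, SE 0.57) and did so without SCP replicate 3 (-1.74, p 0.000491), where its named transcripts were at 1.89 FPKM against 10.5 and 10.2. With unnamed transcripts added Cenpf was at 8.52 FPKM in that replicate and passed with all samples (-1.60, SE 0.18, adjusted p 0.000314). Kif23, a cytokinesis motor, was at 0, 4.24 and 5.42 FPKM in SCPs and at 3.81, 3.38 and 6.71 in RSCs (0.76, SE 0.75), and its direction turned with unnamed transcripts added (-0.99, SE 0.18, adjusted p 0.00324).

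**Figure D5:**
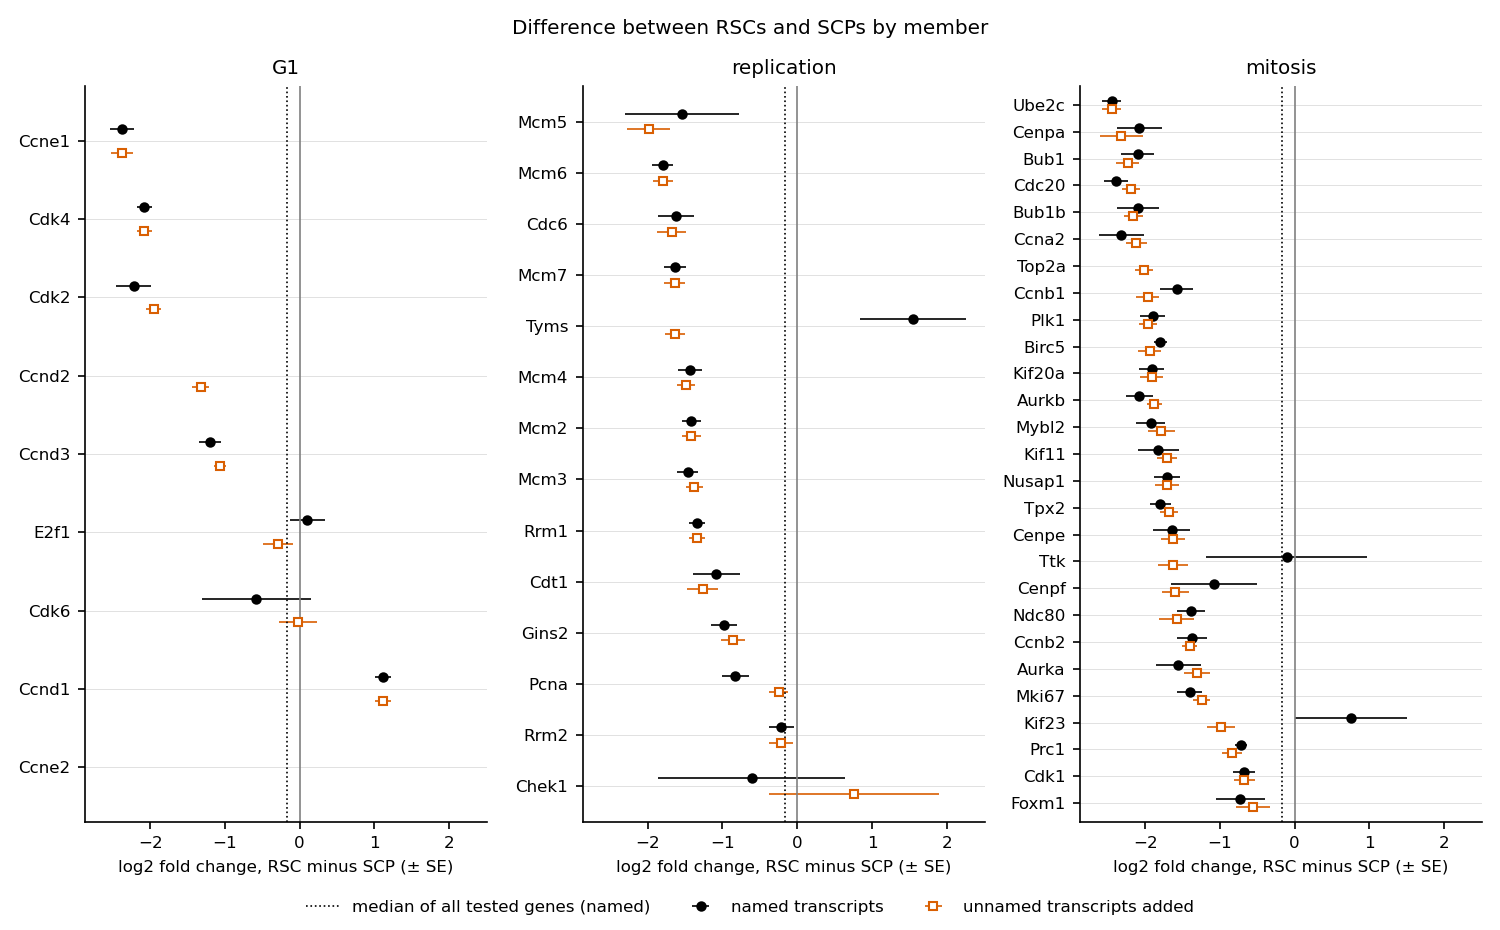
Points give the log2 fold change of log2(FPKM + 1), RSC minus SCP, with its SE as a bar, from named transcripts (black circles) and with unnamed transcripts added (orange squares), and a dotted line marks the median of all tested genes at -0.17. Most members lie left of that line under both, Ccnd1 lies at 1.11 under both, and Cdk6, E2f1, Tyms, Chek1, Ttk and Kif23 change sides of it.

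The SCP samples were not equal among themselves. Of 46 members above 0 in SCPs, SCP replicate 1 was the highest in 38, and SCP replicate 3 was the lowest in 28. The summed FPKM of mitosis genes was 1030, 854 and 826 in SCP replicates 1, 2 and 3 and 261, 266 and 287 in the RSC replicates. The erythroid marker sum was 24062, 17631 and 78699 FPKM in the same SCP replicates, highest in replicate 3, and whether this bears on the order was not tested. RSC replicates were closer, with no replicate highest in more than 22 of 47 members.

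Of the 50 members, 37 had an unnamed transcript at their locus in at least 1 sample, and in 12 these held the larger part of the FPKM in at least 1 sample. Named values of these genes therefore depend on how Cufflinks divided the reads of a locus, sample by sample.

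Other genes of the same processes, from lists written without the members, were mostly higher in SCPs or did not pass. Of 53 tested replication genes 27 were higher in SCPs, or 50.9% where 22.4% of all tested genes were, and 0 in RSCs. With unnamed transcripts 43 of 54 were higher in SCPs, or 79.6% where 34.2% of all were. In this list Pold2, a subunit of DNA polymerase delta, was at 28.8, 28.6 and 21.9 FPKM in SCPs and listed at 0 in the 3 RSC samples, and Orc2, of the origin recognition complex, had a log2 fold change of -3.08 (SE 0.53). Pold2 did not pass with unnamed transcripts added (p 0.0116), nor Orc2 with a pseudocount of 0.1 (p 0.0157). With unnamed transcripts added the difference of Orc2 shrank to -0.57 (SE 0.12), or 1.49-fold higher in SCPs. Of 91 tested mitosis genes 53 were higher in SCPs, or 58.2% against the same 22.4%, and 0 in RSCs, and with unnamed transcripts 77 of 92 were, or 83.7% against 34.2%. Zwint, a kinetochore gene of this list, was at 233 to 251 FPKM in SCPs and 18.1 to 29.9 in RSCs (-3.29, SE 0.18, and -2.65 with unnamed transcripts). Cdca7, which the list holds although it is not known as a gene of mitosis itself, was at -3.08 (SE 0.20). The median log2 fold change was -1.27 for the replication list and -1.10 for the mitosis list, an order that turned with unnamed transcripts added (-1.14 and -1.40).

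Of 14 tested genes of the E2F and RB family 3 were higher in SCPs, or 21.4%, near the 22.4% of all tested genes, and 0 in RSCs. With unnamed transcripts 9 of 15 were, or 60% where 34.2% of all were. E2f6 (-2.35, SE 0.48) and E2f7 (-1.80, SE 0.27), both repressors of E2F targets, had the largest changes among the 3, and with unnamed transcripts E2f6 was at -1.78 and E2f8, which had not passed, at -2.22. E2f6 did not pass without SCP replicate 1 (p 0.0138) or 2 (p 0.0139), or with its highest transcript alone (p 0.0106). A further list mixed kinases, phosphatases, cyclins and ubiquitin pathway genes of several phases, and not all of them promote entry into the cycle. Of its 14 tested genes 8 were higher in SCPs, or 57.1% where 22.4% of all tested genes were. In RSCs 1 was higher, Ccng1 (1.52, SE 0.14), where 18.1% of all were. Skp2, which marks the inhibitor p27 for degradation, was at 33.9, 29.4 and 28.1 FPKM in SCPs and at 1.36, 1.23 and 0.945 in RSCs (-3.85, SE 0.16), and Cdc25a, a phosphatase that activates Cdk2, was at -2.80 (SE 0.26), which did not pass with its highest transcript alone (p 0.0273).

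The inhibitors of cyclin-dependent kinases went the other way in most cases, with 4 of 6 tested genes higher in RSCs, where 18.1% of all tested genes were, and 1 in SCPs, where 22.4% were. With unnamed transcripts 5 of 6 were higher in RSCs, where 23.2% of all were, Cdkn2c being the added one (3.00, SE 0.24). Cdkn1a was at 2.87, 3.33 and 5.94 FPKM in SCPs and at 31.8, 28.7 and 26.4 in RSCs (2.61, SE 0.25), and Cdkn2b was at 0.0779 to 0.156 FPKM in SCPs and 19.3 to 22.5 in RSCs (4.30, SE 0.17). Cdkn1c, which encodes p57, was the gene higher in SCPs, at 602, 649 and 505 FPKM against 10.5, 3.29 and 7.94 in RSCs (-6.26, SE 0.37).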

How the data were processed

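The study sequenced RNA of 3 SCP and 3 RSC samples with a stranded, paired-end mRNA protocol. The submitters' processing notes name FastQC 0.11.2, TopHat2 2.1.0, Cufflinks 2.2.1 and the rn6 rat genome. The authors deposited, sample by sample, the transcripts that Cufflinks quantified, in FPKM. The deposited tables also give the read coverage (a signal) per transcript, and its ratio to FPKM gave the relative depth. The Cuffdiff output was not analysed here, nor were 77 transcripts per table with dates in place of gene names.

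FPKM were summed by symbol, and log2(FPKM + 1) was compared with limma 3.58.1 in R 4.3.3 (variance trend, no replicate block, two-sided). Genes needed an average of 1 FPKM. The thresholds were the study's, an unadjusted p under 0.01 and a 4-fold change. No count-based test was run, since the tables hold no counts, and precision rests on 3 samples a group. An unnamed transcript was assigned to the gene with which it shared a Cufflinks locus and the most bases. The fit was tested on simulated data. Tables, exact tests and plots used pandas 2.3.3, scipy 1.17.1 and matplotlib 3.10.9. Groups and replicate numbers were read from the labels.

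The members and lists were chosen with earlier results of these data known. Values in every sample were given, in each phase, for the 5 members of largest and the 2 of smallest absolute change, for members listed at 0, not past the filter or higher in RSCs, and for Mki67, Top2a, Pcna, Cdk1, Ccnb1 and the D-type cyclins. Of each other list, the 2 genes with the largest change in each direction were named. Some marker genes are not reported here. Values of other members were added for context after they were seen. The alternatives tried were, for scaling, quantile normalization and a median of ratios, for the filter, none or an average of 5 FPKM, and for the model, a pseudocount of 0.1, a fit without variance trend, the replicate block and adjusted p. Group mean ratios, single samples left out, each gene's highest transcript, unnamed transcripts added and values of 0 left out were the others.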

Additional observations from a re-analysis of the deposited data

Results flagged for a closer look

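The unnamed transcripts lie outside the values first compared. At the loci of 3 members they carried a signal where all named values of a group were listed at 0. The unnamed transcripts at Ccnd2 averaged 73.4 FPKM in SCPs and 28.7 in RSCs, and those at Top2a 68.5 FPKM in SCPs and 16.2 in RSCs. At Tyms they averaged 31.6 FPKM in SCPs, where the named transcripts were listed at 0.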

How the results depend on the processing

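At least 31 members were higher in SCPs under each alternative. The share of all tested genes was taken only for the main values and with unnamed transcripts added, so the other counts here stand without it. Relative to the median of all tested genes, the members' median log2 fold change was -1.47 to -1.23 over the refitted alternatives. Members higher in RSCs were 1 to 2 when each sample was left out, with 2 without RSC replicate 1, and 2 with values of 0 left out, Tyms being the second. Members more than 4-fold higher in SCPs were 5 after median-of-ratios scaling and 6 (without SCP replicate 1) to 12 (without SCP replicate 3) when each sample was left out. Other replication genes higher in SCPs were 43 with unnamed transcripts added.

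Directions turned only in members that had not passed. Cdk6 was 0.28 with values of 0 left out, and -1.05 to 0.28 with each sample left out. E2f1 was -0.29 with unnamed transcripts, and -0.0302 to 0.29 with each sample left out. Chek1 was 0.76 with unnamed transcripts, and -1.32 to 0.71 with each sample left out. Ttk was 0.54 with a pseudocount of 0.1, and -0.77 to 0.98 with each sample left out. Tyms was -1.64 and Kif23 -0.99 with unnamed transcripts, Kif23 was -0.088 with values of 0 left out and -0.088 to 1.25 with each sample left out, and Foxm1 was 0.21 with the highest transcript per gene. The cause was not tested.

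Same-numbered SCP and RSC samples did not deviate together (correlations of 0.044, -0.0049 and 0.026), so no pairing by number was visible. These values cannot show whether the samples were prepared in matched sets. With the replicate number as a block, 31 members were higher in SCPs, without Pcna, Gins2, Cdk1 and Aurka.

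Without counts, the tables set no limit of detection for genes listed at 0.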
